A study of Rattus norvegicus with 48 samples.

Results

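ENSRNOG00000020792 and ENSRNOG00000009031 are 2 rat genes whose liver reads were close to zero on the control diet and rose on a steatohepatitis diet. They were picked by measured values, out of 32662 genes in the tables, for the highest rise at week 12 from a control level near zero, so their diet differences are given below as a description with no test. Both passed the filter on low values that left 12756 genes for the fits, and both passed it only through the animals in which they are high. The files name them by Ensembl identifier alone, and no symbol, position or sequence was matched to either, so their functions are not described here.

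The livers came from 48 male Wistar rats, bought at 6 weeks of age, in 6 groups of 8. Control rats received CSAA, a choline-supplemented diet of defined L-amino acids with 12% of its energy from protein, 16% from fat and 72% from carbohydrate, and 0.4% methionine. The others received CDAA, the choline-deficient counterpart with 11%, 31% and 58% of its energy from these sources, 0.17% methionine and 1% added cholesterol, and livers were taken after 4, 8 or 12 weeks. The diets thus differed in choline, methionine, fat and cholesterol together, which cannot be told apart here. Rats were housed in pairs, and cage mates are not marked in the labels.

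Choline is needed to make phosphatidylcholine, a phospholipid that hepatocytes use to export fat in lipoprotein particles. A liver short of choline and methionine stores fat, and on longer feeding it gains inflammatory cells and scar tissue, which is why the diet serves as a model of nonalcoholic steatohepatitis. RNA of whole liver mixes hepatocytes with all of these cells, so more cells that carry a transcript and more transcript per cell cannot be told apart.

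Between 13619274 and 22284359 reads per animal lay on genes. In a principal component analysis of the other 20857 genes with reads, the first component (PC1, 58.6% of the variance) ran from CSAA livers at high scores to CDAA livers at low ones, and 4 animals stood apart from their groups. Animal 303, labelled CDAA at week 4, scored 51.8 against at most -30.7 in its 7 group mates, and lay above CSAA animals 504 (-1.97) and 908 (16.2). Animal 504 of CSAA at week 8 lay below the 45.3 or more of its group, animal 908 of CSAA at week 12 below the 63.1 to 81.9 of its group, and animal 1102 of CDAA at week 12 (-68.7) above the -114.0 to -92.6 of its group. Comparing animals within groups, the 6 pairs formed by animals 1105 to 1108 of CDAA at week 12 were the most alike, with a mean chi-square per gene of 3.28 to 9.20 against 10.7 or more in the other 162 pairs. They differed by more than counting noise and were kept as separate animals, and the week 12 diet differences are also given without 3 of these 4.

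ENSRNOG00000020792 was almost silent in control livers and rose step by step on CDAA. In CSAA at week 4, animals 102 and 103 had 3 reads each, animals 101, 104 and 106 had 1 read each, and the other 3 had none. Among the CSAA livers of week 8, animal 504 had 11 reads, animal 502 had 3, animals 503 and 508 had 1 each, and 4 had none. At week 12, animal 908 had 6 reads, animals 904 and 906 had 3 each, animal 902 had 1, and 4 had none. Over all 24 control rats the gene thus had 38 reads, 11 rats had none, and only animals 504 and 908 had more than 3 reads, together 17 reads or 44.7% of the sum. A count of 0 allows a level of up to 0.141 to 0.220 CPM (reads per 1000000 reads on genes), depending on the depth of the library and for counting error only.

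Every CDAA liver held reads of ENSRNOG00000020792. The lowest, median and highest counts were 5, 6.5 and 23 at week 4, 19, 28.5 and 50 at week 8, and 40, 103.5 and 180 at week 12. The mean level on CDAA was 0.445 ± 0.287 CPM (SD, n = 8) at week 4, 1.85 ± 0.723 CPM at week 8 and 5.01 ± 2.18 CPM at week 12. On CSAA the means were 0.0579 ± 0.0626 CPM, 0.121 ± 0.238 CPM and 0.0942 ± 0.128 CPM, each with an SD above its mean. The diets did not overlap at any week, which the choice of the gene required. The gap was narrow at week 4, with at most 0.160 CPM on CSAA and at least 0.229 CPM on CDAA. At week 8 animal 504 had 0.694 CPM, or 73.9% of the lowest CDAA rat (0.939 CPM).

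ENSRNOG00000009031 was already high on CDAA at week 4, and its few control reads sat in a small number of animals. In CSAA at week 4, animal 103 had 2 reads, animals 106 and 108 had 1 each, and 5 had none. At week 8 animal 504 had 84 reads, animal 502 had 21 and animal 501 had 14, while animals 503, 506, 507 and 508 had 1 read each and animal 505 had none. At week 12 animal 908 had 69 reads, animal 906 had 3, animals 905 and 907 had 2 each, animal 903 had 1, and 3 had none. Of the 204 control reads, 188 (92.2%) came from the 4 animals with more than 3 reads, and 153 (75.0%) from animals 504 and 908 alone.

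In CDAA livers the lowest, median and highest counts of ENSRNOG00000009031 were 5, 150.5 and 300 at week 4, 100, 190 and 432 at week 8, and 261, 455 and 535 at week 12. The 5 reads belonged to animal 303, and the other 7 rats of that group had 103 or more. Mean levels on CDAA were 7.51 ± 3.79 CPM (SD, n = 8), 12.97 ± 5.67 CPM and 23.3 ± 4.45 CPM at weeks 4, 8 and 12. On CSAA they were 0.0286 ± 0.0404 CPM, 0.942 ± 1.81 CPM and 0.553 ± 1.40 CPM. Here too the diets did not overlap at any week, as the choice required.

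**Figure D1:**
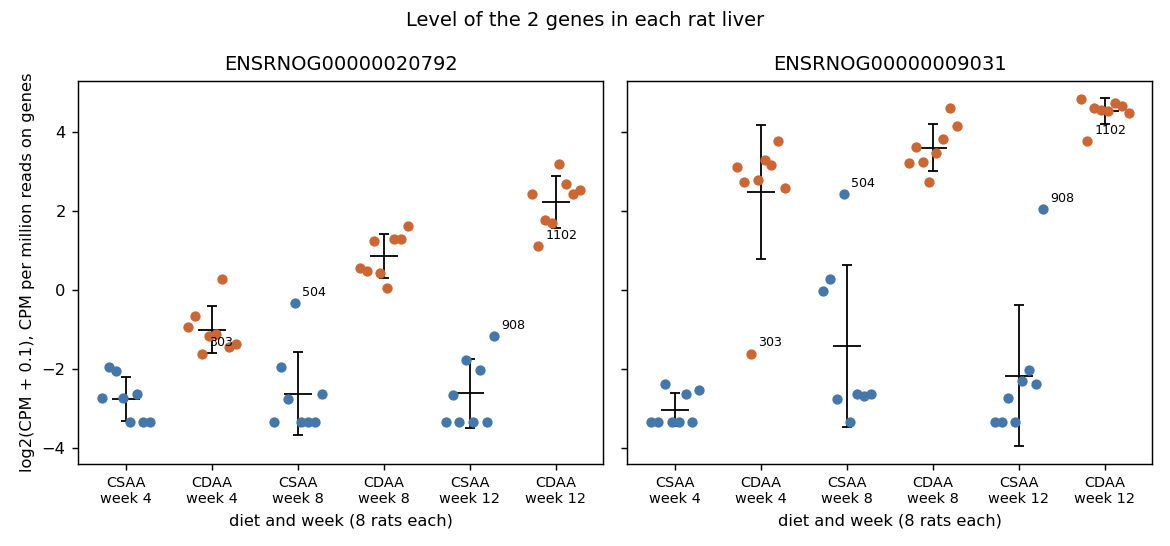
Level of each gene in each rat as log2(CPM + 0.1), by diet and week, where a point is 1 rat and the bar and whiskers are the mean and SD of these log2 values over 8 rats. Points at the bottom edge have no reads; on CSAA, animal 504 (84 reads) and animal 908 (69 reads) stand far above the other control rats for ENSRNOG00000009031, and animal 303 (5 reads) far below the other CDAA rats of week 4.

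Read per length, ENSRNOG00000009031 was the more abundant of the pair on CDAA. The reads and RPKM values (reads scaled to gene length and library size) together imply lengths of 3772 bases for ENSRNOG00000009031 and 2212 bases for ENSRNOG00000020792. At week 12 on CDAA, the mean RPKM was 6.17 ± 1.18 (SD, n = 8) for ENSRNOG00000009031, higher than 62.2% of the genes with a mean above 0 in that group, and 2.27 ± 0.984 for ENSRNOG00000020792, higher than 47.2% of them. On CSAA at week 12 the means were 0.146 ± 0.370 and 0.0425 ± 0.0580 RPKM, higher than 26.7% and 16.1% of the genes above 0. Both genes therefore moved from the lower part to about the middle of the genes with a mean above 0. At week 12 on CDAA these were 19330 genes, more than the 12756 that passed the filter on low values. Of them, 10212 had a higher mean RPKM than ENSRNOG00000020792, and 7311 had a higher one than ENSRNOG00000009031.

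The 2 control animals with the most reads of these genes were those whose whole profile lay nearest to CDAA. Animal 504 was the highest of the 8 control rats of week 8 for 78.2% of the 2308 other genes called higher on CDAA at that week, and animal 908 for 69.9% of 2474 such genes at week 12. In the same way animal 303 was the lowest CDAA rat for 85.2% of 1996 such genes at week 4. Animal 504 held 5.30 CPM of ENSRNOG00000009031, which is 40.9% of the mean CDAA level of its week, and 0.694 CPM of ENSRNOG00000020792, which is 37.5% of it. Animal 908 held 4.03 CPM and 0.350 CPM, or 17.3% and 6.99% of the CDAA means of week 12. What set these animals apart was not tested.

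Animals 501 and 502 also carried ENSRNOG00000009031, at 0.878 and 1.12 CPM. Animal 502 had the second lowest PC1 score of its group, 45.3, and animal 501 scored 68.6. Animal 502 was the highest control rat for 7.76% and animal 501 for 1.82% of the genes called higher at week 8, where animal 504 took most of these places. Of ENSRNOG00000020792, animal 501 had no read and animal 502 had 3. Among the other genes called higher at week 8, 94 had at most 3 reads in each control rat but animal 504, and 71 of them (75.5%) had more than 3 reads in animal 504. At week 12, 151 other genes called higher had at most 3 reads in each control rat but animal 908, and 108 of them (71.5%) had more than 3 reads in animal 908. Of these 151 genes, 0 had as many reads in animal 908 as ENSRNOG00000009031. At week 8, 52 other genes called higher had at most 1 read in each control rat but animals 501, 502 and 504. Of these 52 genes, 0 had at least 10 reads in each of animals 501, 502 and 504. All of these counts were looked for after the reads of the 2 genes were seen. Over the 24 control rats, 8 carried reads of both genes, 5 of ENSRNOG00000020792 alone, 7 of ENSRNOG00000009031 alone and 4 of neither.

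**Figure D2:**
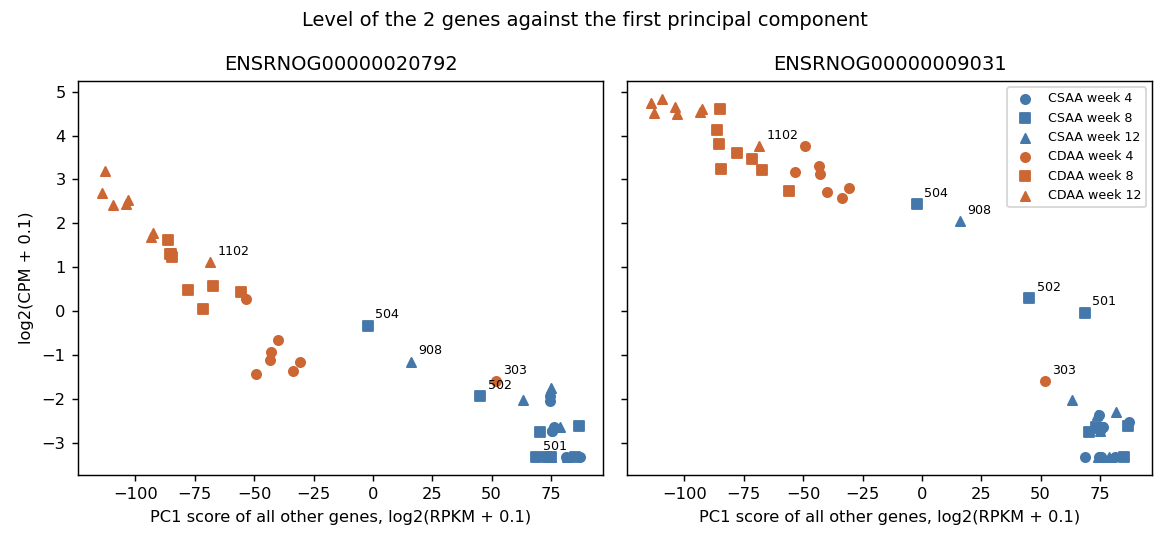
Level of each gene as log2(CPM + 0.1) against the PC1 score of all other genes, 1 point per rat, with colour for diet and shape for week. Animals 504 (PC1 -1.97) and 908 (16.2) lie between the diets on PC1, with levels of ENSRNOG00000020792 inside the range of the CDAA rats of week 4; animal 303 (51.8) lies near the control rats, and animals 501 and 502 hold ENSRNOG00000009031 at 0.878 and 1.12 CPM.

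The diet differences chose the genes, and the courses of the 2 genes over the weeks were not compared by a test. For ENSRNOG00000020792 the log2 fold change of CDAA over CSAA with edgeR, scaled by TMM (trimmed mean of M-values), was 2.33 (standard error 0.65), then 3.32 (0.51), then 4.94 (0.50) over weeks 4, 8 and 12. For ENSRNOG00000009031 it was 7.38 (1.01), 3.27 (0.60) and 4.67 (0.64). A gene was called higher at an adjusted p below 0.01 and a log2 fold change of at least 1, and 15.7%, 18.1% and 19.4% of the genes tested were called higher at weeks 4, 8 and 12. As ratios of mean CPM, without TMM, ENSRNOG00000020792 was 7.68-fold, 15.3-fold and 53.2-fold higher on CDAA. ENSRNOG00000009031 was 263-fold, 13.8-fold and 42.1-fold higher, where the control mean of the 263-fold value rests on 4 reads. In TMM CPM the ratios were lower, at 5.62, 11.3 and 31.4 for ENSRNOG00000020792 and 192, 10.1 and 26.1 for ENSRNOG00000009031.

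Leaving out single control animals moved these values. Without animal 504 the log2 fold change at week 8 was 4.71 (0.57) for ENSRNOG00000020792 and 4.71 (0.65) for ENSRNOG00000009031. Without animal 908 the week 12 value was 5.58 (0.55) for ENSRNOG00000020792 and 7.64 (0.74) for ENSRNOG00000009031. The ratio of mean CPM of ENSRNOG00000009031 went from 42.1 to 410, and in TMM CPM from 26.1 to 228. Leaving out animal 303 moved the week 4 values little, to 2.39 (0.67) and 7.56 (0.94). Without animals 1106 to 1108 the week 12 values were 4.81 (0.55) and 4.63 (0.71).

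The scale also matters, since diet moved the median of all genes tested. With reads on genes as the only scaling, the median log2 fold change was 0.39, 0.65 and 0.73 at weeks 4, 8 and 12, against -0.02, 0.05 and -0.09 with TMM. At week 12 the 2 genes had log2 fold changes of 5.73 and 5.44 with reads on genes as the only scaling, in the order ENSRNOG00000020792 and ENSRNOG00000009031, and each remained well above the median shift.

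**Figure D3:**
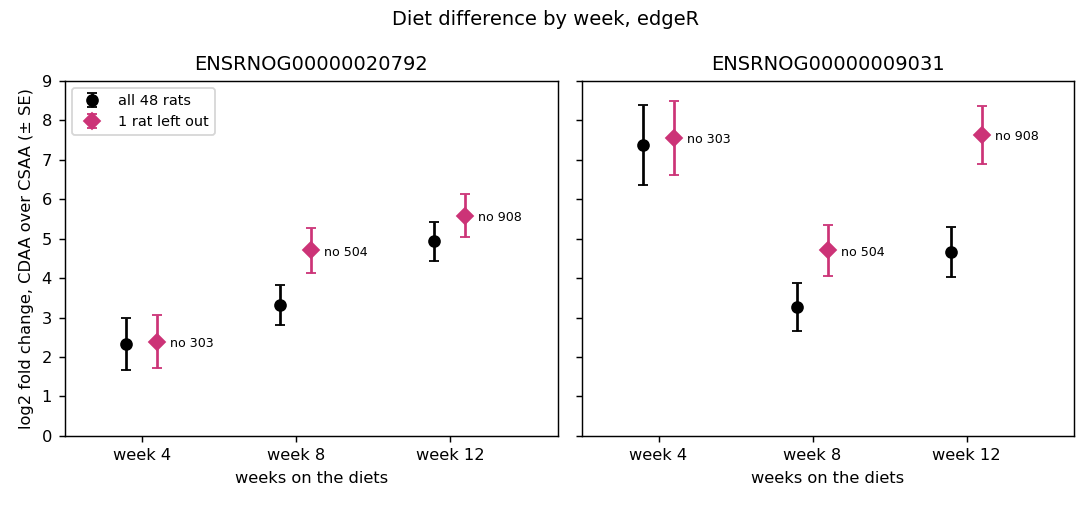
Log2 fold change of CDAA over CSAA by week with edgeR, with whiskers of 1 standard error, for all 48 rats and with 1 rat left out (animal 303, 504 or 908). ENSRNOG00000020792 goes from 2.33 to 4.94 over the weeks; ENSRNOG00000009031 goes from 7.38 down to 3.27 and back to 4.67, and to 7.64 without animal 908.

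The choice had a narrow edge. Among 1570 genes called higher at all 3 weeks, 465 had diets that did not overlap at any week, and these 2 genes led them at week 12. Overlap was judged in TMM CPM, where the gap at week 8 was narrow. There the highest CSAA and lowest CDAA rats had 0.690 and 0.746 for ENSRNOG00000020792, and 5.27 and 5.56 for ENSRNOG00000009031. The next 3 genes had log2 fold changes of 4.50 (standard error 0.47), 4.38 (0.37) and 4.25 (0.60), which lie within the standard errors of the second member. With limma-voom the members took places 10 and 1 in place of 1 and 2. Of all genes called higher at week 12, including those that overlapped at some week, 18 had a higher log2 fold change than ENSRNOG00000020792. For ENSRNOG00000009031 the number was 29, with ENSRNOG00000020792 among them.

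The change from week 4 to week 8 within each diet did not enter the ranking. The genes did have to be called higher on CDAA at both of these weeks, with no overlap between the diets. The p-values of this change are therefore not wholly free of the choice. ENSRNOG00000020792 rose on CDAA between these weeks, by 1.78 on the log2 scale (0.40, adjusted p = 0.000241 with the quasi-likelihood test of edgeR), and 7 of 8 rats of week 8 lay above all rats of week 4. The 8 CDAA rats of week 12, at 2.07 CPM or more, were enough to carry the gene past the filter. The CDAA rats of week 8 also met it, and those of week 4 did not. Without a filter the value was 1.77 (0.39, adjusted p = 0.000334 from edgeR). Of the genes tested, 3.17% were called higher in this comparison. The exact permutation test over the 16 rats, on log2(TMM CPM + 0.1), gave a difference of 1.61 with p = 0.000311 (two-sided).

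ENSRNOG00000009031 was not called between weeks 4 and 8 on CDAA, where edgeR gave 0.56 on the log2 scale (0.49, adjusted p = 0.355), and only 3 of 8 rats of week 8 lay above all rats of week 4. The exact permutation test gave a difference of 0.86 with p = 0.106 (two-sided). Without animals 303, 504, 908 and 1102 the log2 fold change was 0.43 (0.25, adjusted p = 0.147 from edgeR).

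On CSAA neither gene was called between weeks 4 and 8, where 0.0314% of genes were called higher. These p-values too are not wholly free of the choice, which used the control values of both weeks. ENSRNOG00000020792 had a log2 fold change of 0.79 (0.83, adjusted p = 0.640 from edgeR), and -0.53 (0.94) without animal 504. ENSRNOG00000009031 had a log2 fold change of 4.67 (1.30, adjusted p = 0.0394 from edgeR), short of the threshold, on 4 reads at week 4 and 123 at week 8, of which 84 were those of animal 504. Without animal 504 it was 3.30 (1.44, adjusted p = 0.223), and DESeq2 called it with all animals (4.85, adjusted p = 0.00224).

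The change of the diet difference from week 4 to week 8 is given with no test, since both differences were part of the choice. Over all genes tested, 4.25% were called in either direction in this comparison. For ENSRNOG00000020792 the diet difference at week 8 minus that at week 4 was 0.99 (standard error 1.04) on the log2 scale. For ENSRNOG00000009031 it was -4.11 (1.48), and -2.68 (1.54) without animal 504. On log2(RPKM + 0.1) and log2(RPKM + 1) the direction for ENSRNOG00000009031 turned, to 0.047 and 0.36.

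From week 8 to week 12 on CDAA, whose later animals chose the genes, ENSRNOG00000020792 differed by 1.34 (0.34) and ENSRNOG00000009031 by 0.76 (0.49) on the log2 scale. From week 4 to week 12 the values were 3.12 (0.39) and 1.32 (0.49). Within CDAA at week 12, animals 1105 to 1108 held 5.28 to 8.99 CPM of ENSRNOG00000020792. Animals 1101 to 1104 held 2.07 to 5.26 CPM. In the deposited RPKM they overlapped, at 2.395 to 4.07 and 0.934 to 2.40. In TMM CPM they did not overlap, at 3.89 to 6.37 and 1.64 to 3.68. This split is common, since 14.0% of the genes tested showed it in TMM CPM in either direction, and 7.42% with animals 1105 to 1108 higher. For ENSRNOG00000009031 the same animals overlapped in CPM, at 22.3 to 26.6 CPM and 13.5 to 28.4 CPM.

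The balance of the 2 genes within a liver was described by the ratio of their RPKM values, ENSRNOG00000009031 over ENSRNOG00000020792, a measure added after the data were seen. Its lowest, median and highest values on CDAA were 0.583, 11.7 and 31.1 at week 4, 2.40, 3.69 and 6.82 at week 8, and 1.49, 2.96 and 4.34 at week 12. The value of 0.583 belonged to animal 303, and it alone of the 24 CDAA rats had less of ENSRNOG00000009031 than of ENSRNOG00000020792. From week 4 to week 8 the log2 ratio fell by 0.96, which did not pass the exact permutation test (p = 0.156, two-sided, 8 against 8 rats). Without animal 303 it fell by 1.49 with p = 0.00186 in the same exact test, so the result turns on that library. Leaving out animal 303 was also decided after the data were seen. The p-value without it is therefore a description and does not establish a fall.

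**Figure D4:**
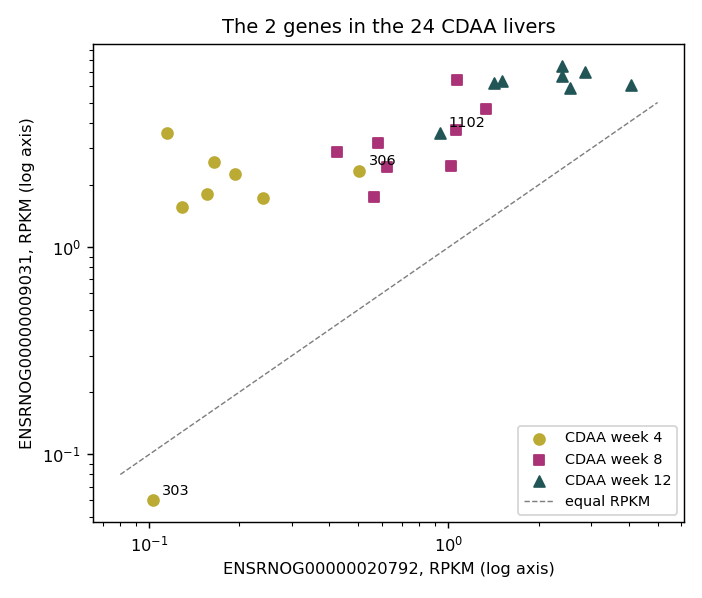
RPKM of the 2 genes against each other in the 24 CDAA rats, both axes logarithmic, with colour and shape for week and a dashed line at equal RPKM. All rats but animal 303 (ratio 0.583) lie above the line, and the median ratio goes from 11.7 at week 4 to 2.96 at week 12.

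Within a week the 2 genes were not shown to vary together among CDAA rats. Pearson's r of log2(RPKM + 0.1) took values of 0.35, 0.62 and 0.65 over weeks 4, 8 and 12, and Spearman's rho was 0.26, 0.71 and 0.26 (n = 8 each). The exact permutation p-values of r were 0.260, 0.108 and 0.0865, and 0.260, 0.163 and 0.163 after Benjamini-Hochberg adjustment over these 3 relations. Those of rho were 0.536, 0.0576 and 0.536 by the same exact test, and 0.536, 0.173 and 0.536 adjusted. Without the 2 rats farthest from the median of ENSRNOG00000020792, r was 0.55, 0.64 and 0.41.

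Other genes resembled each member more closely than the members resembled each other. Over the 24 CDAA rats, as deviations from the group mean in log2(TMM CPM + 0.1), the 5 genes most like ENSRNOG00000020792 had Pearson's r of 0.85 to 0.88, and those most like ENSRNOG00000009031 had 0.94 to 0.96, whereas the members had 0.26 with each other. Without animal 303 the 5 nearest had 0.87 to 0.89 and 0.77 to 0.82, so the high values for ENSRNOG00000009031 rest in part on that rat. Over all 48 rats, where diet and week are shared by all genes, Spearman's rho of the 5 nearest was 0.94 to 0.95 for ENSRNOG00000020792 and 0.93 to 0.95 for ENSRNOG00000009031, and 0.87 between the members. These likenesses are descriptions picked as the highest over the 12756 genes tested.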

How the data were processed

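Stranded mRNA libraries of 48 rat livers were sequenced from 1 end. Per the study's methods, the authors aligned reads with STAR to Rnor_6.0 and counted them per gene with featureCounts; the strand setting of the counting is not given in the sources used here. The deposited counts are raw whole reads per gene, and the deposited RPKM values were made by the authors from reads, gene length and library size. GEO's labels spell the diet CDDA in places and CDAA in others; CDAA is used here.

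Counts of all 48 animals were fitted at once in edgeR 4.0.16 (R 4.3.3), with TMM scaling, a group-means model and the quasi-likelihood test, on the 12756 of 32662 genes that reached 1 CPM in 5 or more animals of any group. Calls needed a Benjamini-Hochberg adjusted p below 0.01 and a log2 change of 1 or more in size. CPM in the text is per 1000000 reads on genes unless TMM is named. Depth was 13619274 to 22284359 reads on genes, and limits for 0 reads use 3 counts. limma-voom (limma 3.58.1), the kind of test the study used, DESeq2 1.42.0 and scipy 1.17.1 were used for alternatives and exact tests. The fits were tested on simulated data.

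The members, lists and tests were chosen with earlier results of these data known. Named genes were the 2 members, the next genes in their ranking and, by likeness, the 5 nearest, given without identifiers. Of 32662 identifiers, 0 matched the RefSeq table, so marker lists, names and sequences were not used here. The p-values of edgeR set a difference against the spread between rats, estimated over all 6 groups and moderated across genes. Those of the exact tests rest on the rats compared. Cage mates were not marked.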

Additional observations from a re-analysis of the deposited data

Results flagged for a closer look

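Of 15 groups of 8 rats searched for a value far from the rest, 5 held one by Dixon's test. These were 2 genes in 6 groups, and the log2 ratio in the 3 CDAA groups. Chance gives about 1 in 20 where values are normal. CPM that rest on few reads need not be normal, and the week 12 values chose the genes. That rate is therefore no measure for these 5, which are given as a description. In CSAA at week 8, animal 504 was the highest for both genes, with 0.694 CPM of ENSRNOG00000020792 against at most 0.161 CPM in the others and 5.30 CPM of ENSRNOG00000009031 against at most 1.12 CPM. Animal 908 of CSAA at week 12 had 4.03 CPM of ENSRNOG00000009031, and the others had at most 0.147 CPM. In CDAA, animal 1102 was the lowest at week 12 for ENSRNOG00000009031, with 13.5 CPM against 22.3 to 28.4 CPM, and animal 306 was the highest at week 4 for ENSRNOG00000020792, with 1.12 CPM (23 reads) against 0.229 to 0.532 CPM. Animals 504, 908 and 1102 also stood apart on PC1, and animal 306 had the lowest PC1 score of its group (-53.6).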

How the results depend on the processing

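The rise of ENSRNOG00000020792 from week 4 to week 8 on CDAA was called under every alternative but log2(RPKM + 1), where the log2 difference was 0.60, below the fold threshold; leaving out single animals gave 1.65 to 2.11. Leaving out single animals, the other values ranged from 0.37 to 0.72 for ENSRNOG00000009031 on CDAA, -0.53 to 1.15 and 3.30 to 5.27 for the 2 genes on CSAA, 0.63 to 2.36 and -4.71 to -2.68 for the change of the diet difference, and 4.73 to 5.58 and 4.46 to 7.64 for the week 12 diet difference. On CSAA, ENSRNOG00000020792 was at -0.53 without animals 303, 504, 908 and 1102 (left out after seeing the data), and ENSRNOG00000009031 was called by DESeq2 (4.85). The change of the diet difference, whose parts the choice of the genes used, is again given with no test. For ENSRNOG00000020792 it was 1.52 on log2(RPKM + 0.1). For ENSRNOG00000009031 it was -4.24 by DESeq2, and it turned to 0.047 and 0.36 on log2(RPKM + 0.1) and log2(RPKM + 1). The week 12 diet difference moved to 1.59 and 2.67 for the 2 genes on log2(RPKM + 1), and for ENSRNOG00000009031 to 6.86 with limma-voom and 7.79 without the 4 animals. The log2 ratio of the genes was at -1.49 without animal 303. The causes of these shifts were not tested.

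With a minimum of 4 reads, control rats that carried ENSRNOG00000020792 went from 5, 4 and 4 to 0, 1 and 1 at weeks 4, 8 and 12, and those that carried ENSRNOG00000009031 from 3, 7 and 5 to 0, 3 and 1. Over all genes, 405 were called higher and 235 lower from week 4 to 8 on CDAA, against 806 and 61 with reads on genes as the only scaling, 656 and 51 on log2(RPKM + 0.1) and 164 and 31 on log2(RPKM + 1). On CSAA 4 were called higher, against 56 with DESeq2 and 3 to 17 under the other alternatives. For the change of the diet difference, 155 were called higher and 387 lower, against 323 and 155 with reads on genes as the only scaling, 383 and 136 on log2(RPKM + 0.1) and 97 and 118 on log2(RPKM + 1). No paired analysis was possible because the groups share no replicate numbers. At these depths 0 reads in a single control animal allows a level of up to 0.141 to 0.220 CPM, depending on the library.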
